A study of Arabidopsis thaliana with 40 samples.

Results

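Photorespiration recycles the 2-phosphoglycolate that rubisco makes when it takes up oxygen in place of carbon dioxide, and its enzymes were the subject here. The list named 10 loci of Arabidopsis thaliana by locus code: PGLP1 (AT5G36700), GOX1 (AT3G14420), GOX2 (AT3G14415), GGAT1 (AT1G23310), SGAT1 (AT2G13360), GLDP1 (AT4G33010), GLDT (AT1G11860), SHM1 (AT4G37930), HPR1 (AT1G68010) and GLYK (AT1G80380). A probe set was found for 9 of the 10 among 27826 on the array, and PGLP1 was not analysed here. Transcript levels came from 40 Affymetrix arrays of shoots, or leaf material in the design text, with 4 biological replicates in each of 10 groups. The mutant lines were 2cysprx, cyp20-3, oastlB and serat2;1, named for genes of 2-Cys peroxiredoxin, cyclophilin 20-3, O-acetylserine(thiol)lyase B and serine acetyltransferase 2;1, with wild type (WT) beside them. Each genotype was sampled after 6 h of high light (HL) of 800 µmol quanta m-2 s-1, or without leaving the normal light (NL) used for growth, 80 µmol quanta m-2 s-1. All plants grew in soil with days of 8 h and nights of 16 h and were 28 days old. No other treatment is recorded, and the alleles, the plants pooled per array and the harvest hour go unstated in these sources, so each line stands for its gene only as labelled.

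As background, the pathway runs through the chloroplast, the peroxisome and the mitochondrion. In the chloroplast, phosphoglycolate phosphatase (PGLP1) releases glycolate. In the peroxisome, glycolate oxidases (GOX1, GOX2) form glyoxylate and hydrogen peroxide, and aminotransferases (GGAT1, which uses glutamate, and SGAT1, which uses serine) turn glyoxylate into glycine. In the mitochondrion, the glycine decarboxylase complex, with its P protein (GLDP1) and T protein (GLDT), works with serine hydroxymethyltransferase (SHM1) to make serine from glycine. Hydroxypyruvate made from that serine is reduced to glycerate by HPR1 in the peroxisome. In the chloroplast, glycerate kinase (GLYK) turns glycerate into 3-phosphoglycerate. Serine is also the substrate of serine acetyltransferase, so the pathway lies upstream of cysteine synthesis, which the study's mutants touch.

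Values are log2 intensities, and differences are log2 differences with the standard error (SE) of a limma fit over all 40 arrays. Limma is a linear model that borrows information on the spread across probe sets. A gene was called risen or fallen at an adjusted p under 0.05, after Benjamini-Hochberg adjustment over all 27826 probe sets. Levels of the members are not compared with each other, because probe sets differ in brightness. Array values are listed in the order of replicates 1 to 4. In shoot RNA, fewer cells of a type and less RNA per cell cannot be told apart. The transcripts named by 3 of the 4 lines fell in their own line relative to WT: 2CPA averaged 5.31 ± 0.24 in 2cysprx NL and 10.70 ± 0.19 in WT NL, CYP20-3 6.47 ± 0.22 in cyp20-3 NL and 10.57 ± 0.10 in WT NL, and OASB 4.68 ± 0.08 in oastlB NL and 9.19 ± 0.10 in WT NL. SERAT2;1 averaged 6.81 ± 0.16 in serat2;1 HL and 6.34 ± 0.08 in WT HL, and 6.38 ± 0.20 in serat2;1 NL and 6.36 ± 0.22 in WT NL (SD, n = 4 each), so the arrays with the serat2;1 label did not have less of it. Where those probes lie relative to the mutation is not given, so this does not test the label. The array 2cysprx HL replicate 2 stood apart, with 2CPA at 9.0 in a group whose lowest array read 5.13 and whose median was 5.56, and the calls in 2cysprx are also given without it. The 8 root and 7 floral marker transcripts had list means of at most 2.42 and 2.84 on the log2 scale in every group, against a lower quartile of 2.61 over all probe sets. The 7 markers of dividing cells had list means between 4.79 and 5.53, and the 6 of guard and myrosin cells between 8.21 and 8.52. Some of these markers moved with the comparisons. Over the averaged light response 4 of 7 dividing-cell markers fell and 0 rose, and 3 of the 6 guard and myrosin markers fell and 1, KAT1, rose. In 2cysprx NL all 7 dividing-cell markers lay above WT NL, at a median difference of 0.24 with 0 called, while the myrosin-cell genes TGG1 and TGG2 fell (-0.23 ± 0.06 and -0.32 ± 0.07). The dividing-cell markers were mostly higher than WT NL in the other lines too, with 0 called. All 7 lay above it in cyp20-3 (median 0.34), and 6 of 7 in oastlB (0.25) and in serat2;1 (0.20). The 5 leaf markers had list means of at least 9.31, although LHCB1.1 averaged at most 2.73 in any group. The part of these cell types in the results was not tested.

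Of the 5 peroxisomal members, 4 rose in HL in all 5 genotypes, and so did the mitochondrial GLDP1. Of the 9 members, 6 rose in 2cysprx, 5 in cyp20-3, 6 in oastlB, 6 in serat2;1 and 5 in WT, and 0 fell in any of them, also at an unadjusted limma p under 0.05. The share of all probe sets that rose was 4.48% in 2cysprx, 8.83% in cyp20-3, 7.9% in oastlB, 5.54% in serat2;1 and 10.3% in WT. The share that fell was 4.08%, 8.99%, 8.25%, 5.9% and 9.58% in the same order. GOX1, GGAT1, SGAT1, HPR1 and GLDP1 rose in all 5 genotypes, which is 55.6% of the members, while 436 probe sets, or 1.57% of all, did so. The members' median difference was 0.30 in 2cysprx, 0.39 in cyp20-3, 0.46 in oastlB, 0.30 in serat2;1 and 0.35 in WT, where the median of all probe sets lay between -0.03 and 0.00. The HL arrays lay wholly above the NL arrays for 6 members in 2cysprx, 5 in cyp20-3, 6 in oastlB, 5 in serat2;1 and 5 in WT, where 6.39%, 10.5%, 8.36%, 7.47% and 11.3% of all probe sets did in the same order. The called rises lay between 0.26 and 0.75 on the log2 scale, or 1.2-fold and 1.68-fold.

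**Figure D1:**
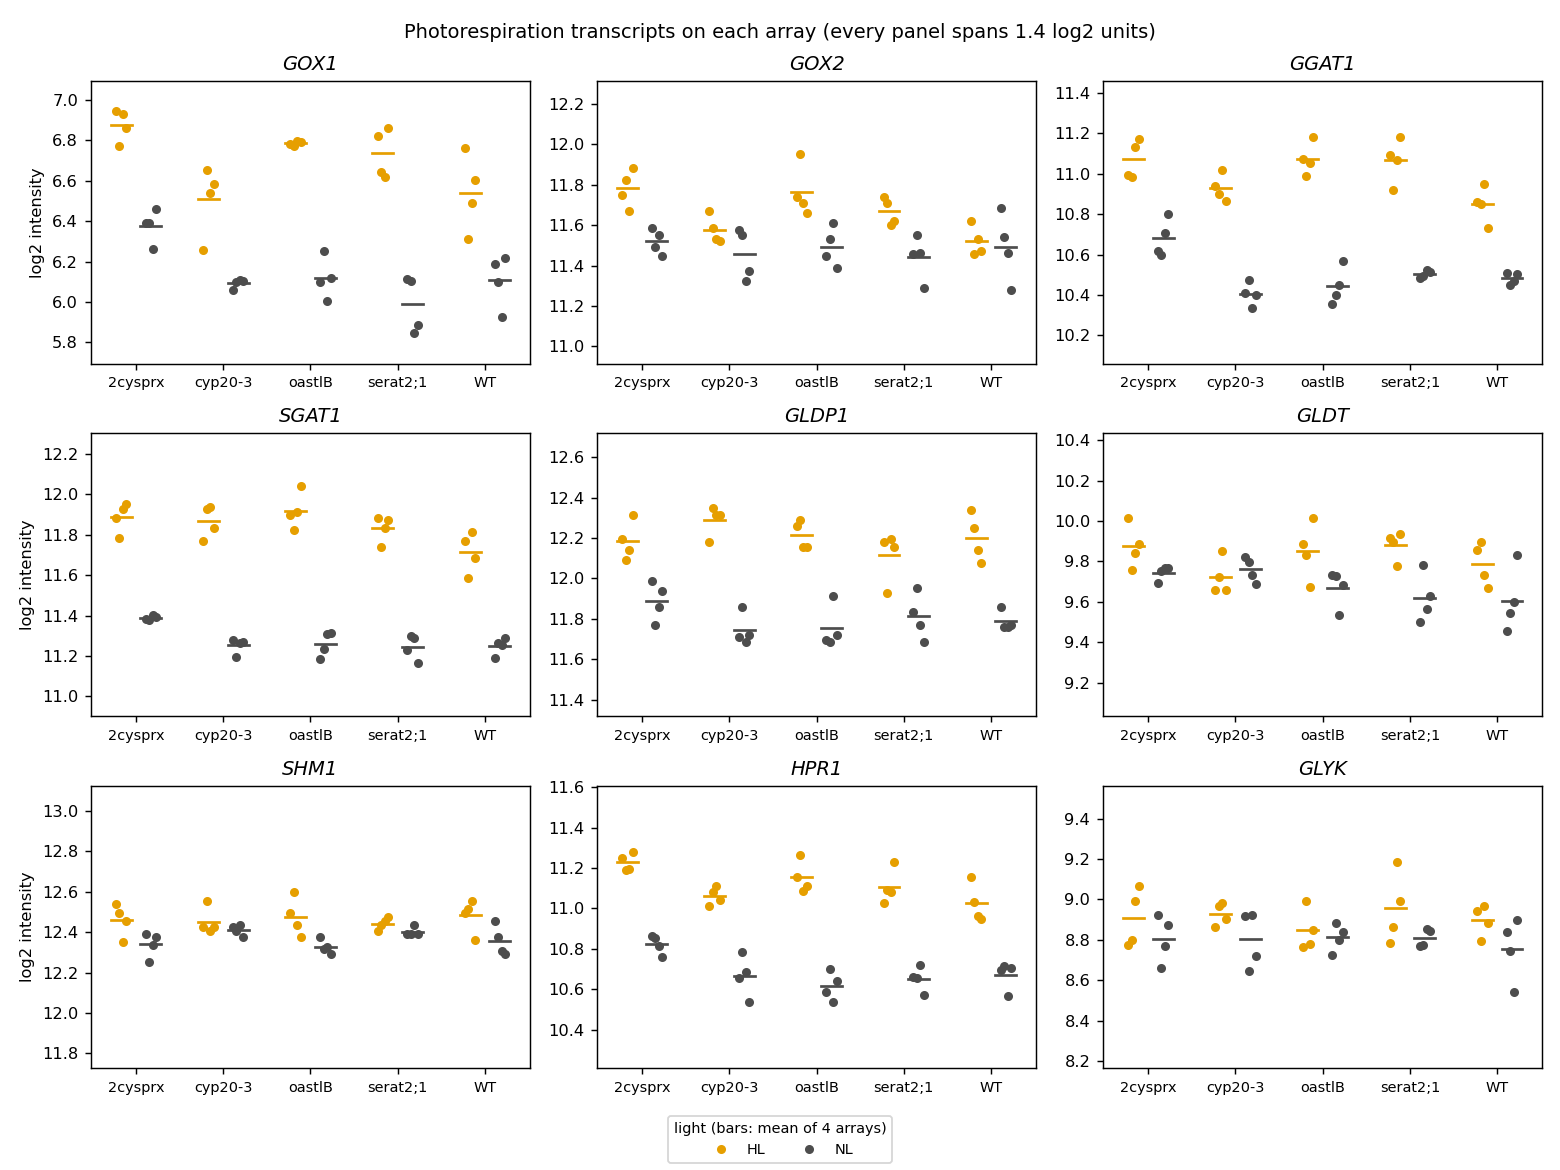
Log2 intensity of the 9 measured photorespiration transcripts on each of the 40 arrays, with genotypes along the horizontal axis, HL in orange left of NL in grey, and a bar at the mean of 4 arrays. Every panel spans the same range, and HL points lie above NL points in every genotype for GOX1, GGAT1, SGAT1 and HPR1, but intermingle for GLDT, SHM1 and GLYK.

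Glycolate oxidase, the first peroxisomal step, has 2 genes in the set, of which GOX1 rose in HL in all 5 genotypes and GOX2 in 2cysprx and oastlB. In 2cysprx, GOX1 read 6.94, 6.77, 6.93 and 6.86 in HL, against 6.39, 6.39, 6.26 and 6.46 in NL. In cyp20-3, GOX1 read 6.26, 6.65, 6.54 and 6.58 in HL, against 6.06, 6.10, 6.11 and 6.10 in NL. In both lines every HL array lay above every NL array. In oastlB, GOX1 read 6.78, 6.77, 6.80 and 6.79 in HL, against 6.10, 6.25, 6.01 and 6.12 in NL. In serat2;1, GOX1 read 6.82, 6.64, 6.62 and 6.86 in HL, against 6.11, 6.10, 5.84 and 5.89 in NL. In WT, GOX1 read 6.76, 6.31, 6.49 and 6.61 in HL, against 6.19, 6.10, 5.92 and 6.22 in NL. GOX1 separated the lights without overlap in all 5 genotypes. Its HL minus NL difference was 0.50 ± 0.09 (adjusted p = 2.9e-04) in 2cysprx, 0.42 ± 0.09 (adjusted p = 0.00102) in cyp20-3, 0.67 ± 0.09 (adjusted p = 1.2e-06) in oastlB, 0.75 ± 0.09 (adjusted p = 4.9e-07) in serat2;1 and 0.43 ± 0.09 (adjusted p = 5.6e-04) in WT, so the estimates lay between 1.33-fold and 1.68-fold. The 4 oastlB HL arrays differed least, with an SD of 0.01, and the 4 WT HL arrays most, with an SD of 0.19.

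GOX2, a neighbour of GOX1 on chromosome 3 with no other gene starting between them in the annotation table, encodes the other oxidase. In 2cysprx, GOX2 read 11.75, 11.83, 11.67 and 11.88 in HL, against 11.59, 11.49, 11.55 and 11.45 in NL. In oastlB, GOX2 read 11.74, 11.95, 11.71 and 11.66 in HL, against 11.45, 11.53, 11.61 and 11.39 in NL. In serat2;1, GOX2 read 11.74, 11.71, 11.60 and 11.62 in HL, against 11.46, 11.55, 11.46 and 11.29 in NL. The lights did not overlap in these 3 lines. In cyp20-3, GOX2 read 11.67, 11.59, 11.53 and 11.52 in HL, against 11.58, 11.55, 11.32 and 11.37 in NL. In WT, GOX2 read 11.62, 11.46, 11.53 and 11.47 in HL, against 11.69, 11.54, 11.46 and 11.28 in NL. Here the ranges overlapped, and in WT the highest array was an NL array. The difference was 0.26 ± 0.08 (adjusted p = 0.0432) in 2cysprx, 0.12 ± 0.08 (adjusted p = 0.363) in cyp20-3, 0.27 ± 0.08 (adjusted p = 0.021) in oastlB, 0.23 ± 0.08 (adjusted p = 0.0731) in serat2;1 and 0.03 ± 0.08 (adjusted p = 0.862) in WT, so GOX2 passed the test in 2cysprx and oastlB. The 2cysprx call was lost without any one of 7 of its 8 arrays, HL replicate 3 being the exception, at adjusted p between 0.0516 without NL replicate 1 and 0.136 without HL replicate 4. The oastlB call was lost without NL replicate 1 (adjusted p = 0.0594), NL replicate 4 (0.0797) or HL replicate 2 (0.113), and both calls in fits of the compared arrays alone (0.193 in 2cysprx, 0.167 in oastlB). GOX1 and GOX2 encode near-identical proteins, and whether their probes respond to each other's transcript is not given, so how the signal divides between them is uncertain.

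Both aminotransferases that make glycine from glyoxylate rose in every genotype, and within each genotype every HL array lay above every NL array. In 2cysprx, GGAT1 read 11.00, 10.98, 11.13 and 11.17 in HL, against 10.62, 10.60, 10.71 and 10.80 in NL. In cyp20-3, GGAT1 read 10.94, 10.90, 11.02 and 10.87 in HL, against 10.41, 10.48, 10.34 and 10.40 in NL. In oastlB, GGAT1 read 11.07, 10.99, 11.05 and 11.18 in HL, against 10.35, 10.40, 10.45 and 10.57 in NL. The NL arrays of 2cysprx were the highest NL arrays of GGAT1 in the series. In serat2;1, GGAT1 read 11.09, 10.92, 11.07 and 11.18 in HL, against 10.48, 10.49, 10.52 and 10.51 in NL. In WT, GGAT1 read 10.86, 10.85, 10.95 and 10.73 in HL, against 10.51, 10.45, 10.47 and 10.50 in NL. The GGAT1 difference was 0.39 ± 0.07 (adjusted p = 2.0e-04) in 2cysprx, 0.52 ± 0.07 (adjusted p = 6.3e-07) in cyp20-3, 0.63 ± 0.07 (adjusted p = 1.6e-08) in oastlB, 0.56 ± 0.07 (adjusted p = 5.4e-07) in serat2;1 and 0.37 ± 0.07 (adjusted p = 1.6e-04) in WT, with the highest estimate in oastlB, at 1.55-fold. In a fit of the 2cysprx arrays alone its adjusted p was 0.0697.

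SGAT1, which takes its amino group from serine, also rose in every genotype. In 2cysprx, SGAT1 read 11.88, 11.78, 11.93 and 11.95 in HL, against 11.38, 11.38, 11.40 and 11.39 in NL. In cyp20-3, SGAT1 read 11.77, 11.93, 11.94 and 11.84 in HL, against 11.28, 11.20, 11.26 and 11.27 in NL. In oastlB, SGAT1 read 11.90, 11.83, 11.91 and 12.04 in HL, against 11.18, 11.24, 11.31 and 11.31 in NL. The 2cysprx NL arrays were again the highest NL arrays of the series. In serat2;1, SGAT1 read 11.88, 11.74, 11.84 and 11.87 in HL, against 11.23, 11.30, 11.29 and 11.16 in NL. In WT, SGAT1 read 11.77, 11.59, 11.81 and 11.69 in HL, against 11.19, 11.26, 11.25 and 11.29 in NL. The SGAT1 difference was 0.50 ± 0.06 (adjusted p = 1.6e-06) in 2cysprx, 0.62 ± 0.06 (adjusted p = 5.3e-09) in cyp20-3, 0.66 ± 0.06 (adjusted p = 1.3e-09) in oastlB, 0.59 ± 0.06 (adjusted p = 5.3e-08) in serat2;1 and 0.47 ± 0.06 (adjusted p = 1.1e-06) in WT, or 1.38-fold in WT at the low end and 1.58-fold in oastlB at the high end. The lowest HL array of any genotype, WT replicate 2, lay above the highest NL array of any genotype, 2cysprx replicate 3.

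Of the 3 mitochondrial members, GLDP1, the P protein that decarboxylates glycine, rose in all 5 genotypes. In 2cysprx, GLDP1 read 12.20, 12.09, 12.14 and 12.31 in HL, against 11.99, 11.77, 11.86 and 11.94 in NL. In cyp20-3, GLDP1 read 12.18, 12.35, 12.31 and 12.31 in HL, against 11.71, 11.86, 11.69 and 11.72 in NL. In oastlB, GLDP1 read 12.26, 12.29, 12.16 and 12.16 in HL, against 11.70, 11.69, 11.91 and 11.72 in NL. No HL array overlapped an NL array in these lines. In serat2;1, GLDP1 read 12.18, 11.93, 12.20 and 12.16 in HL, against 11.84, 11.95, 11.77 and 11.69 in NL. In WT, GLDP1 read 12.34, 12.25, 12.14 and 12.07 in HL, against 11.86, 11.76, 11.76 and 11.77 in NL. In serat2;1 the HL array of replicate 2 lay below the highest NL array, so that the lights overlapped, while WT showed none. The GLDP1 difference was 0.30 ± 0.08 (adjusted p = 0.0112) in 2cysprx, 0.55 ± 0.08 (adjusted p = 2.5e-06) in cyp20-3, 0.46 ± 0.08 (adjusted p = 3.2e-05) in oastlB, 0.30 ± 0.08 (adjusted p = 0.00717) in serat2;1 and 0.41 ± 0.08 (adjusted p = 1.4e-04) in WT. Without 2cysprx HL replicate 4 the 2cysprx estimate was 0.25 and was no longer called (adjusted p = 0.0585), and in fits of the compared arrays alone the calls in 2cysprx (0.157) and serat2;1 (0.133) were lost.

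Of the other mitochondrial members, GLDT passed the test in 1 genotype and SHM1 in none. GLDT, the T protein that passes a methylene group to tetrahydrofolate, rose in serat2;1 by 0.26 ± 0.08 (adjusted p = 0.0366) and was not called elsewhere. In serat2;1, GLDT read 9.91, 9.89, 9.78 and 9.93 in HL, against 9.50, 9.78, 9.57 and 9.63 in NL. All but 1 of these NL arrays lay below the HL arrays, and the exception was NL replicate 2. That call was lost without NL replicate 1 (adjusted p = 0.13), 3 (0.0965) or 4 (0.0642), or without HL replicate 1 (0.0804), 2 (0.0701) or 4 (0.0974), and in a fit of the serat2;1 arrays alone (0.168). In the other genotypes the GLDT difference was 0.13 ± 0.08 for 2cysprx, -0.04 ± 0.08 for cyp20-3, 0.18 ± 0.08 for oastlB and 0.18 ± 0.08 for WT, with adjusted p between 0.13 and 0.82. Without WT NL replicate 4, the highest of its group at 9.83, the WT estimate was 0.26 (adjusted p = 0.0299). SHM1, the hydroxymethyltransferase that condenses the methylene group with glycine, was not called in any genotype, with differences of 0.12 ± 0.06 in 2cysprx, 0.04 ± 0.06 in cyp20-3, 0.15 ± 0.06 in oastlB, 0.04 ± 0.06 in serat2;1 and 0.13 ± 0.06 in WT. Its group means lay between 12.33 ± 0.04 in oastlB NL and 12.48 ± 0.08 in WT HL (SD, n = 4 each), a span of 0.16. SHM1 ranked between 31 and 53 from the top among 27826 probe sets on every array. The upper bound of its interval was at most 0.28 in any genotype, so larger rises lie outside the intervals. The arrays share 1 set of values, identical in 39 of them and within 0.00193 in the other, so a value here stands for a rank, and neighbouring ranks near SHM1 lie 0.0137 apart at the median.

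At the end of the cycle, the hydroxypyruvate reductase HPR1 rose in every genotype and the kinase GLYK passed the test in none. In 2cysprx, HPR1 read 11.25, 11.19, 11.20 and 11.28 in HL, against 10.86, 10.85, 10.81 and 10.76 in NL. In cyp20-3, HPR1 read 11.01, 11.08, 11.11 and 11.04 in HL, against 10.65, 10.79, 10.68 and 10.54 in NL. In oastlB, HPR1 read 11.16, 11.26, 11.09 and 11.11 in HL, against 10.58, 10.70, 10.54 and 10.64 in NL. No HL array came within the range of the NL arrays of its own line. In serat2;1, HPR1 read 11.03, 11.09, 11.08 and 11.23 in HL, against 10.66, 10.65, 10.72 and 10.57 in NL. In WT, HPR1 read 11.16, 11.03, 10.96 and 10.95 in HL, against 10.70, 10.71, 10.57 and 10.71 in NL. The HPR1 difference was 0.41 ± 0.07 (adjusted p = 5.8e-05) in 2cysprx, 0.39 ± 0.07 (adjusted p = 3.2e-05) in cyp20-3, 0.54 ± 0.07 (adjusted p = 1.6e-07) in oastlB, 0.46 ± 0.07 (adjusted p = 7.5e-06) in serat2;1 and 0.35 ± 0.07 (adjusted p = 1.2e-04) in WT, and the highest NL array of any genotype, at 10.86 in 2cysprx, lay below the lowest HL array, at 10.95 in WT. GLYK, the kinase that closes the cycle, was not called in any genotype, with differences of 0.10 ± 0.09 in 2cysprx, 0.13 ± 0.09 in cyp20-3, 0.03 ± 0.09 in oastlB, 0.15 ± 0.09 in serat2;1 and 0.14 ± 0.09 in WT. Its arrays overlapped between the lights in all 5 genotypes, for example 8.94, 8.79, 8.96 and 8.88 in WT HL, against 8.84, 8.74, 8.54 and 8.90 in WT NL. The interval of the WT difference, -0.04 to 0.32, still holds rises of the size seen for GLDP1 in 2cysprx.

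**Figure D2:**
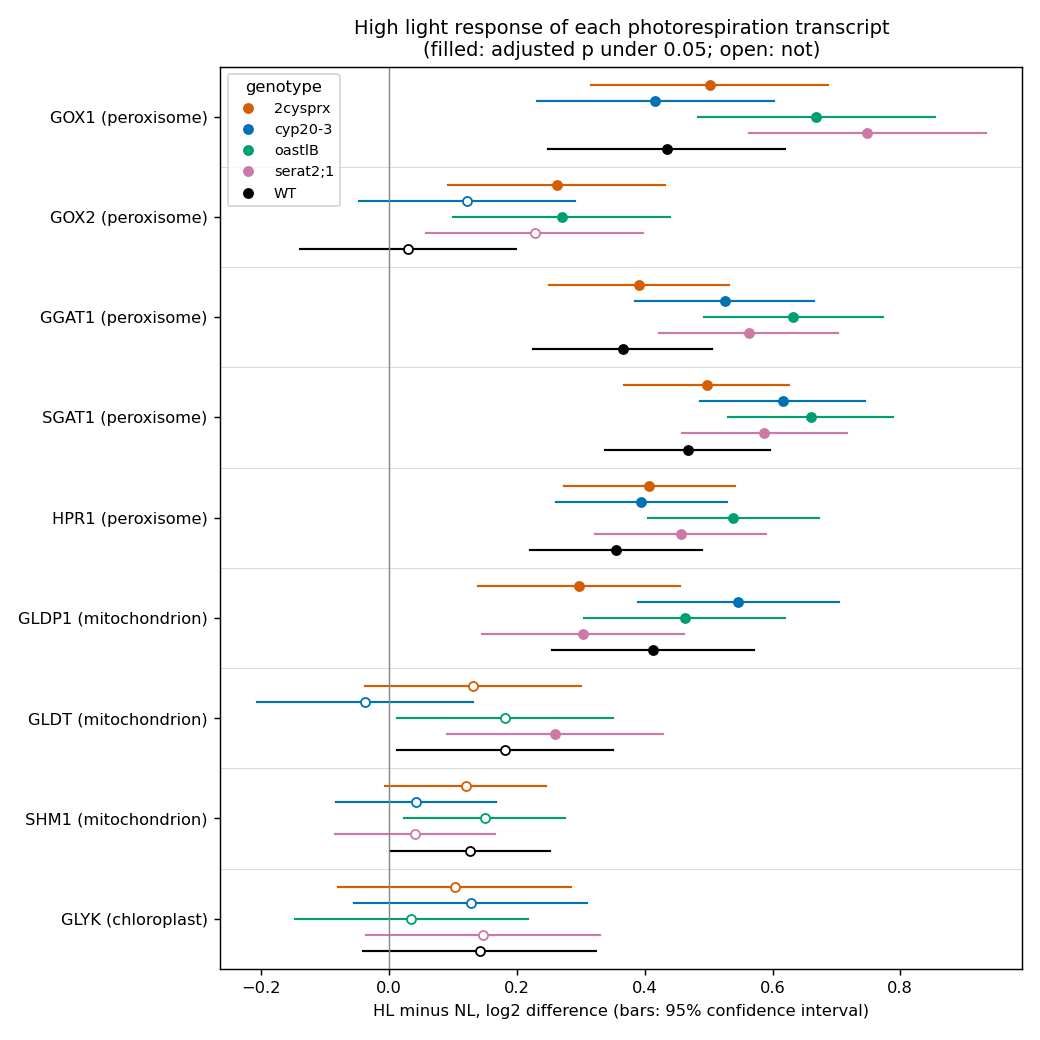
HL minus NL log2 difference of the 9 measured members in each genotype, with 95% confidence intervals from the limma fit; filled symbols were called at an adjusted p under 0.05. GOX1, GGAT1, SGAT1, HPR1 and GLDP1 are filled in all 5 genotypes, whereas SHM1 and GLYK are open throughout.

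Averaged over the 5 genotypes, a contrast chosen after the data had been seen, the light response was positive and called for all 9 members, where 16.6% of all probe sets rose and 18.7% fell. The averages were 0.57 ± 0.03 (adjusted p = 1.1e-17) for SGAT1, 0.55 ± 0.04 (adjusted p = 2.4e-13) for GOX1, 0.50 ± 0.03 (adjusted p = 3.2e-15) for GGAT1, 0.43 ± 0.03 (adjusted p = 3.7e-14) for HPR1 and 0.40 ± 0.03 (adjusted p = 9.4e-12) for GLDP1. The other averages were, for GOX2, 0.18 ± 0.04 (adjusted p = 1.5e-04), for GLDT 0.14 ± 0.04 (adjusted p = 0.00228), for GLYK 0.11 ± 0.04 (adjusted p = 0.0294) and for SHM1 0.10 ± 0.03 (adjusted p = 0.00588). The GLYK call was lost without any of 5 arrays: cyp20-3 NL replicate 2 (0.0516), WT NL replicate 3 (0.0543), 2cysprx HL replicate 4 (0.0518), oastlB HL replicate 2 (0.05, at the threshold) and serat2;1 HL replicate 3 (0.0533). With array weights it was lost too (0.0549). Ranked by group mean, the 5 HL groups were the top 5 of 10 for every member except GLDT, where 4 of them were. Between neighbours in that order the arrays mostly overlapped: the gaps were between 2cysprx NL and the next lower group for GOX1, GGAT1, SGAT1 and HPR1, and between WT HL and 2cysprx NL for SGAT1 and HPR1. 2cysprx HL had the highest mean for GOX1, GOX2 and HPR1, oastlB HL for GGAT1 and SGAT1, cyp20-3 HL for GLDP1, serat2;1 HL for GLDT and GLYK, and WT HL for SHM1. As a description over 10 group means that share these arrays, each member's Pearson correlation with the mean of the other members lay between 0.79 for SHM1 and 1.00 for HPR1.

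Set against WT in the same light, 1 member in 1 line passed the test, GOX1 in 2cysprx HL. The 4 lines share their WT arrays, so these comparisons are not independent. In NL, 0 of 9 members were called in any line, where 10.1% of probe sets were called for 2cysprx, 0.0467% for cyp20-3, 3.42% for oastlB and 2.42% for serat2;1. At an unadjusted limma p under 0.05, 4 members were higher in 2cysprx NL, where 11% of all probe sets were. At the same limit 0 members differed in the NL arrays of the other lines, where 9.16% of probe sets did for cyp20-3, 15.3% for oastlB and 14.5% for serat2;1. In HL, 1 member was called in 2cysprx and 0 in the other lines, where the shares were 2.21% for 2cysprx (1.27% rising), 2.24% for cyp20-3, 0.855% for oastlB and 0.956% for serat2;1. The unadjusted counts in HL were 5 for 2cysprx, 1 for cyp20-3, 4 for oastlB and 2 for serat2;1, all higher than WT. At that limit 6.77%, 4.95%, 6.74% and 6.72% of all probe sets were higher than WT, in the same order. The members' median difference from WT in HL was 0.17 for 2cysprx, 0.03 for cyp20-3, 0.13 for oastlB and 0.09 for serat2;1, and in NL it was 0.14, 0.00, 0.00 and 0.01 in the same order, with medians of all probe sets between -0.01 and 0.00.

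GOX1 read 6.94, 6.77, 6.93 and 6.86 in 2cysprx HL, against 6.76, 6.31, 6.49 and 6.61 in WT HL. All 4 mutant arrays lay above the highest WT array, and the difference was 0.34 ± 0.09 (adjusted p = 0.0414), or 1.26-fold. Without 2cysprx HL replicate 2, the array that stood apart, the estimate was 0.37 (adjusted p = 0.0409). The call was lost without 2cysprx HL replicate 1 (0.121), 3 (0.118) or 4 (0.0846), or without WT HL replicate 2 (0.194), 3 (0.125) or 4 (0.0728), and in a fit of those 8 arrays alone (0.202). In NL, GOX1 read 6.39, 6.39, 6.26 and 6.46 in 2cysprx, against 6.19, 6.10, 5.92 and 6.22 in WT, again without overlap (0.27 ± 0.09, adjusted p = 0.0556). It passed the threshold without 2cysprx NL replicate 3 (0.0456) or WT NL replicate 4 (0.049). GGAT1, SGAT1 and HPR1 in 2cysprx NL also lay wholly above WT NL, by 0.20 ± 0.07, 0.14 ± 0.06 and 0.15 ± 0.07, with adjusted p = 0.0632, 0.177 and 0.159. Such a separation upward from WT NL held for 6.62% of all probe sets in 2cysprx. In HL, GOX2, GGAT1 and HPR1 of 2cysprx did not overlap WT either, at 0.26 ± 0.08, 0.22 ± 0.07 and 0.20 ± 0.07, with adjusted p = 0.101, 0.0878 and 0.107. With GOX1 these were 4 of the 9 members, and 5.27% of all probe sets lay wholly above WT in HL.

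In 2cysprx averaged over both lights, a contrast added after the data had been seen, 4 members rose relative to WT, where 6.26% of probe sets were called and 3.4% rose. The averages were 0.30 ± 0.06 (adjusted p = 0.00267) for GOX1, 0.21 ± 0.05 (adjusted p = 0.00595) for GGAT1, 0.18 ± 0.05 (adjusted p = 0.0161) for HPR1 and 0.16 ± 0.04 (adjusted p = 0.0293) for SGAT1. The SGAT1 call was lost without WT NL replicate 1 (0.0597), WT HL replicate 2 (0.0805), WT HL replicate 4 (0.0553), 2cysprx HL replicate 3 (0.057) or 2cysprx HL replicate 4 (0.0662). In a fit of the 2cysprx and WT arrays alone the calls of GGAT1 (0.0562), HPR1 (0.0852) and SGAT1 (0.132) were lost. Without 2cysprx HL replicate 2 the same 4 averages were 0.32, 0.23, 0.18 and 0.17, all called, and its light response had 5 called members, with GOX2 lost (adjusted p = 0.103).

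In oastlB HL, 4 members (GOX1, GOX2, GGAT1 and SGAT1) lay wholly above WT HL without passing the test, and 3.97% of all probe sets lay wholly above it, called or not. GGAT1 read 11.07, 10.99, 11.05 and 11.18 in oastlB HL, against 10.86, 10.85, 10.95 and 10.73 in WT HL (0.23 ± 0.07, adjusted p = 0.106). The differences of GOX1, GOX2 and SGAT1 were 0.24 ± 0.09, 0.24 ± 0.08 and 0.20 ± 0.06, with adjusted p = 0.202, 0.16 and 0.113. In serat2;1 HL, 3 of 4 arrays of GGAT1 lay above the highest WT array (0.22 ± 0.07, adjusted p = 0.131), and every member overlapped WT. The cyp20-3 line had HL differences between -0.07 for GLDT and 0.15 for SGAT1. Averaged over both lights, 0 members were called in cyp20-3, oastlB and serat2;1, where 1.11%, 1.08% and 0.65% of probe sets were, and 0, 2 and 1 members had an unadjusted limma p under 0.05, where 10.5%, 13.7% and 12.2% of probe sets did. SHM1, GLDP1 and GLYK differed from WT by at most 0.10 in either direction in every line and light.

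**Figure D3:**
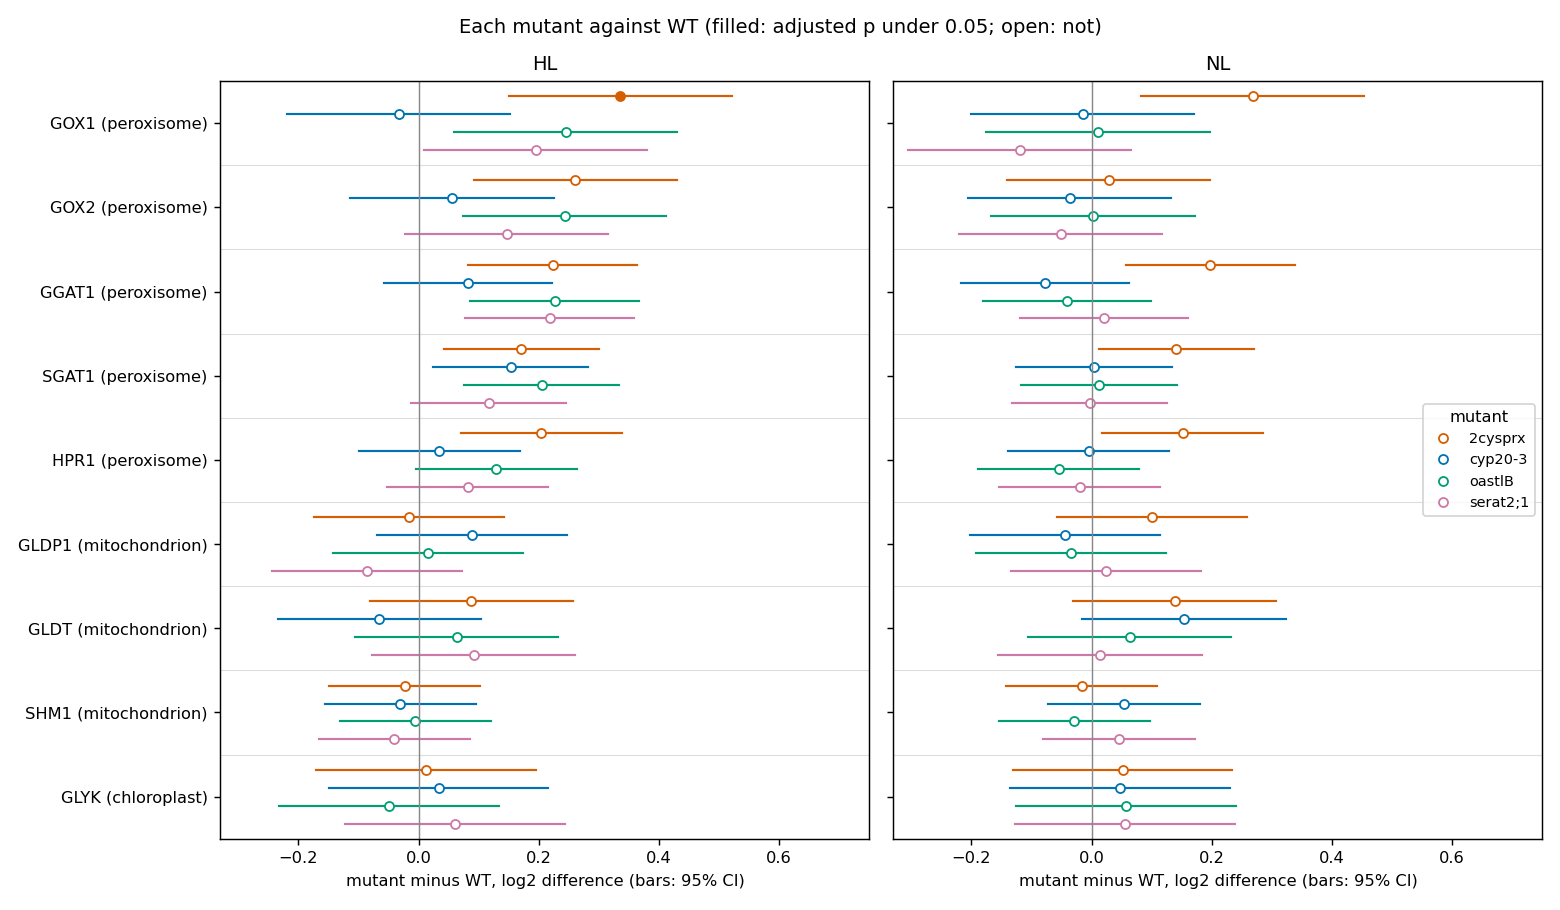
Mutant minus WT log2 difference of each measured member in HL (left) and NL (right), with 95% confidence intervals; the filled symbol, GOX1 in 2cysprx HL at 0.34, is the single member called at an adjusted p under 0.05. Members are ordered by organelle, and the 2cysprx symbols of all members but GLDP1 and SHM1 lie to the right of 0 in both lights.

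Whether a line's light response differed from that of WT was tested as an interaction. It was called for 0 of 9 members in each line, where 6.09% of probe sets were called for 2cysprx, 0.855% for cyp20-3, 2.8% for oastlB and 2.29% for serat2;1. At an unadjusted limma p under 0.05, 0 members differed for 2cysprx, 0 for cyp20-3, 3 for oastlB and 1 for serat2;1, where 17.7%, 9.5%, 16% and 16.1% of all probe sets did in the same order. Those in oastlB were GGAT1 (0.27 ± 0.10, adjusted p = 0.138), SGAT1 (0.19 ± 0.09, adjusted p = 0.275) and GOX2 (0.24 ± 0.12, adjusted p = 0.309), and the one in serat2;1 was GOX1 (0.31 ± 0.13, adjusted p = 0.207). The 95% interval of the GGAT1 interaction in oastlB was 0.07 to 0.47, and that of GOX1 in serat2;1 was 0.05 to 0.58. For HPR1, the intervals were -0.14 to 0.24 in 2cysprx, -0.15 to 0.23 in cyp20-3, -0.01 to 0.37 in oastlB and -0.09 to 0.29 in serat2;1. The WT response of HPR1 was 0.35 ± 0.07. The members' median interaction was 0.03 for 2cysprx, 0.04 for cyp20-3, 0.18 for oastlB and 0.10 for serat2;1, with 5, 5, 8 and 7 of 9 estimates above 0, and that of all probe sets lay between -0.01 and 0.01. GOX2 and GLDT, called in some genotypes and not in others, were thus not shown to respond differently from WT in any line.

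Other genes of the pathway, from a list of 24 isoforms, partner subunits, transporters and ammonium-fixing enzymes, moved in both directions with light. In HL 5 rose and 1 fell in 2cysprx, 10 rose and 4 fell in cyp20-3, 9 rose and 1 fell in oastlB, 7 rose and 1 fell in serat2;1, and 9 rose and 2 fell in WT. Their median difference lay between 0.11 in 2cysprx and 0.15 in serat2;1. Of the 24, 5 rose in all 5 genotypes (20.8%). They were CAT2, the peroxisomal catalase that removes the hydrogen peroxide of glycolate oxidation, GGAT2, GLDP2, mtLPD1, the mitochondrial dihydrolipoyl dehydrogenase, and PMDH2, a peroxisomal malate dehydrogenase. CAT2 had the largest response, between 0.96 and 1.14 on the log2 scale, and averaged 9.21 ± 0.16 in WT HL and 8.08 ± 0.26 in WT NL (SD, n = 4 each). The isoforms GGAT2 and GLDP2 of members GGAT1 and GLDP1 had differences between 0.40 and 0.74, and between 0.39 and 0.61. Whether the probes of these isoforms respond to the transcript of the member is not given. GLDH1, an H protein of glycine decarboxylase, rose in 4 genotypes (0.33 ± 0.09, adjusted p = 0.0098 in WT), and the other H proteins GLDH2 and GLDH3 passed the test in none. BOU, a mitochondrial carrier needed for glycine decarboxylation, also rose in 4 (0.45 ± 0.08, adjusted p = 8.2e-05 in WT). GLN2, the chloroplast glutamine synthetase that refixes photorespiratory ammonium, rose in cyp20-3, oastlB and WT (0.24 ± 0.07, adjusted p = 0.0081 in WT), and DIT1, a plastid dicarboxylate transporter, in cyp20-3 and WT (0.62 ± 0.09, adjusted p = 2.7e-06 in WT). GLU1, the ferredoxin-dependent glutamate synthase, and PLGG1, the plastid glycolate and glycerate transporter, were called in no genotype, with WT differences of 0.16 ± 0.09 and 0.10 ± 0.08. HAOX2, a hydroxy-acid oxidase related to the glycolate oxidases, fell in all 5 genotypes, with WT HL at 6.65 ± 0.13 and WT NL at 7.35 ± 0.10 (-0.70 ± 0.12, adjusted p = 4.1e-05). HPR2, a cytosolic reductase, fell in cyp20-3 and WT (-0.27 ± 0.08, adjusted p = 0.0169 in WT), and SHM2, the second mitochondrial hydroxymethyltransferase, fell in cyp20-3 (-0.39 ± 0.10, adjusted p = 0.00394). In cyp20-3, HPR3 rose (0.52 ± 0.14, adjusted p = 0.00789) and the plastid transporter BASS6 fell (-0.46 ± 0.16, adjusted p = 0.0422), and in oastlB PMDH1 rose (0.28 ± 0.10, adjusted p = 0.0427). The remaining PGLP2, GOX3, HAOX1, mtLPD2 and DIT2.1 passed the test in no genotype.

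Against WT, 2 of the 24 rose in 2cysprx NL: CAT2 (0.53 ± 0.13, adjusted p = 0.00374) and GLDP2 (0.32 ± 0.08, adjusted p = 0.00806). DIT1 rose in serat2;1 NL (0.32 ± 0.09, adjusted p = 0.047) and fell in 2cysprx HL (-0.38 ± 0.09, adjusted p = 0.0139), and its light response was smaller in oastlB than in WT (-0.49 ± 0.13, adjusted p = 0.0307). Averaged over both lights, CAT2 rose in 2cysprx (0.45 ± 0.09, adjusted p = 0.00116) and in oastlB (0.35 ± 0.09, adjusted p = 0.0448), and GLDP2 in 2cysprx (0.24 ± 0.06, adjusted p = 0.00796).

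**Figure D4:**
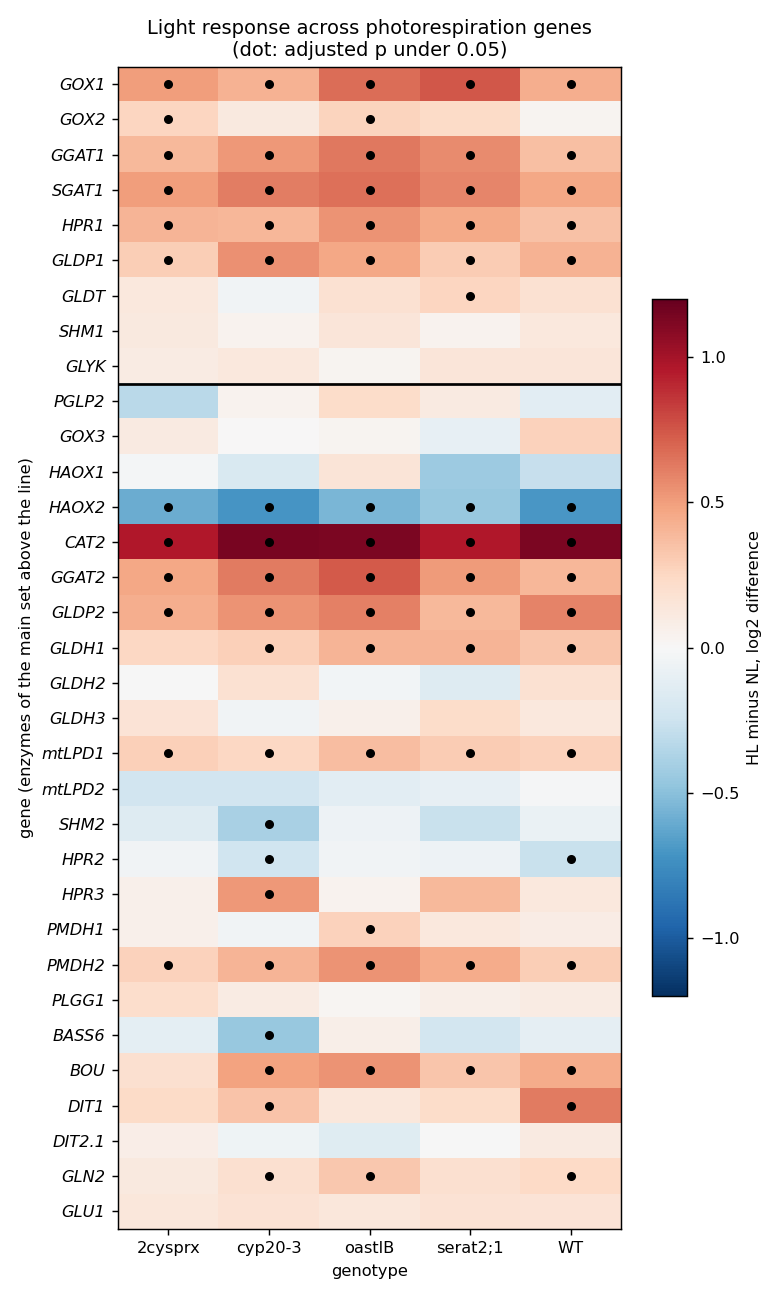
Light response of the 9 measured members (above the line) and 24 other photorespiration genes (below it) in each genotype, as the HL minus NL log2 difference in colour, red for higher in HL, with a dot where the adjusted p was under 0.05. CAT2 is the darkest red row, at between 0.96 and 1.14, and HAOX2 is blue with a dot in all 5 genotypes.

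Of 15 Calvin-Benson cycle genes 8 rose in each of the 5 genotypes, and 5 (33.3%) rose in all of them, against 55.6% of the members and 1.57% of all probe sets. The largest rises in WT were those of the rubisco small subunits RBCS1B (1.29 ± 0.14) and RBCS2B (1.07 ± 0.09). Against WT in NL, 2 of the 15 rose in 2cysprx, the plastid aldolase FBA1 (0.40 ± 0.08, adjusted p = 0.0012) and the glyceraldehyde-3-phosphate dehydrogenase subunit GAPB (0.22 ± 0.07, adjusted p = 0.0401). In 2cysprx HL, 1 of the 15 rose, the other dehydrogenase subunit GAPA (0.41 ± 0.11, adjusted p = 0.0409), and 1 fell, RBCS1B (-0.53 ± 0.14, adjusted p = 0.0344). The light response of 2cysprx exceeded that of WT for GAPA (0.57 ± 0.16, adjusted p = 0.0233) and was smaller for RBCS1B (-0.88 ± 0.20, adjusted p = 0.00398). The phosphorylated pathway, which makes serine in the plastid without photorespiration, has 6 genes here, of which 3 rose and 1 fell in WT, 2 rose in oastlB and 1 fell each in cyp20-3 and serat2;1. In 2cysprx 0 of the 6 passed limma's test, also at an unadjusted p under 0.05. In WT, PSAT2 (0.47 ± 0.13), PGDH1 (0.35 ± 0.10) and PSP1 (0.35 ± 0.10) rose and PGDH2 (-0.61 ± 0.13) fell; in oastlB, PGDH2 (0.45 ± 0.13) and PSP1 (0.34 ± 0.10) rose, and PGDH3 fell in cyp20-3 (-0.28 ± 0.10) and serat2;1 (-0.30 ± 0.10). Against WT in NL, PGDH2, a phosphoglycerate dehydrogenase, fell in 2cysprx (-0.72 ± 0.13, adjusted p = 3.1e-04) and oastlB (-0.59 ± 0.13, adjusted p = 0.00808), and PSAT2, a phosphoserine aminotransferase, rose in oastlB (0.50 ± 0.13, adjusted p = 0.0304). The light response differed from that of WT for PGDH2 in oastlB (1.05 ± 0.19, adjusted p = 0.00168) and for PGDH1 (-0.48 ± 0.15, adjusted p = 0.045) and PSAT2 (-0.73 ± 0.19, adjusted p = 0.0145) in 2cysprx.

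Of 12 circadian clock genes, 2 rose in HL in each genotype but serat2;1, while 3 fell in 2cysprx, 5 in cyp20-3, 4 in oastlB, 4 in serat2;1 and 7 in WT. In NL 2 rose and 6 fell in 2cysprx relative to WT, 2 and 4 in serat2;1, and 4 fell in oastlB. In cyp20-3 NL 0 of the 12 passed limma's test, also at an unadjusted p under 0.05. The largest changes in WT HL were those of the morning genes PRR9 (2.50 ± 0.20) and CCA1 (1.03 ± 0.15) and the evening genes FKF1 (-1.41 ± 0.11) and ELF4 (-1.24 ± 0.16). In 2cysprx NL relative to WT NL, PRR9 differed by 1.34 ± 0.20, CCA1 by 0.67 ± 0.15, ELF4 by -1.27 ± 0.16 and FKF1 by -0.78 ± 0.11, all called. FKF1 averaged 5.37 ± 0.21 in 2cysprx NL and 6.15 ± 0.07 in WT NL, the pair of groups in which GOX1, GGAT1, SGAT1 and HPR1 did not overlap. In 2cysprx HL, where GOX1, GOX2, GGAT1 and HPR1 did not overlap WT HL, 0 of the 12 clock genes were called against WT. At an unadjusted limma p under 0.05, 1 of them was higher there and 3 were lower. In HL against WT, 2 rose and 1 fell in cyp20-3, 1 fell in serat2;1 and 0 were called in oastlB. The part of the clock in the members' values was not tested, and the harvest hour is not given.

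Outside the members, the 5 probe sets whose 10 group means were most alike to the members' mean were AT1G64680 (Pearson r = 0.99), AT2G36835 (0.99), NdhM (AT4G37925, 0.99), AT4G12830 (0.99) and NRPB4 (AT5G09920, 0.98). NdhM is a subunit of the chloroplast NADH dehydrogenase-like complex, and NRPB4 a subunit of RNA polymerase II. Their WT light responses lay between 0.20 for NRPB4 and 0.47 for AT4G12830 on the log2 scale. These values describe likeness over 10 groups from the same arrays, picked as the highest of 27826, and carry no test.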

How the data were processed

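The authors' deposited table holds log2 intensities of 27826 probe sets on 40 Affymetrix arrays, made with robust multi-array average (RMA), per the submitters' processing notes; the array type and probe-set grouping are not stated there. Total RNA was biotin-labelled, per the labels' protocols. Arrays have no read depth, and their number limits the precision. The probe set named by each locus was used as deposited, and 27241 loci had an entry in the symbol table. Group means of all 40 arrays were fitted in 1 model with limma 3.58.1 in R 4.3.3, without a replicate block, and p-values were adjusted by Benjamini-Hochberg over all probe sets within each comparison. The 17 comparisons covered light within genotypes, mutants against WT within NL and HL, and the interactions of both; 5 averages were added after the data had been seen. The members and gene lists were chosen with earlier results of these data known. All members are named. Of the other lists, the text names genes that passed the test, up to the 2 largest rises and 2 largest falls per comparison, and always CAT2, GLDH1, GLN2, GLU1 and PLGG1; the other photorespiration genes and the phosphorylated serine pathway are named more fully, chosen after their values were seen. The settings varied were the prior variance (with an intensity trend), the replicate block, only the compared arrays, only the brighter probe sets, quantile and cyclic loess normalization, array weights and leaving out each array. Quantile normalization moved no member value by more than 0.00171, because the deposited arrays already share 1 distribution, and is not counted as a check. Promoter motifs were not analysed here.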

Additional observations from a re-analysis of the deposited data

Results flagged for a closer look

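In 8 of the 90 pairs of member and group, 1 array lay far from the other 3 of its group relative to the group's range (Dixon's criterion, which chance meets in about 1 in 20 groups). In the mitochondrial set, GLDP1 read 11.93 in serat2;1 HL replicate 2, where the others lay between 12.16 and 12.20, and this array gives the overlap of the lights in that line. GLDP1 also read 11.91 in oastlB NL replicate 3, against 11.69 to 11.72 in the others, and 11.86 in WT NL replicate 1, against 11.76 to 11.77 in the others. SHM1 read 12.56 in cyp20-3 HL replicate 2, against 12.40 to 12.42 in the others, and 12.44 in serat2;1 NL replicate 3, where the other 3 read 12.39. In the peroxisomal set, GOX1 read 6.06 in cyp20-3 NL replicate 1, against 6.10 to 6.11 in the others. SGAT1 read 11.20 in cyp20-3 NL replicate 2, against 11.26 to 11.28 in the others. HPR1 read 10.57 in WT NL replicate 3, against 10.70 to 10.71 in the others. These arrays remained in the fit.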

How the results depend on the processing

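No called value of a member changed sign under any alternative run, and over the 17 planned comparisons 889 of 918 values of single members stayed on the same side of the threshold under the alternatives other than leaving out 1 array, 7 lost a call and 22 gained one. Of 1512 such values with 1 array left out, 23 lost a call and 3 gained one. In the 5 averages added later, 4 of 261 values lost a call, 10 of 936 with 1 array left out, and 0 gained one. Quantile normalization could change almost nothing here and is left out of these counts. The counts of members called moved as follows. In 2cysprx NL against WT, 0 were called, against 1 with an intensity trend, 1 with array weights and 2 among the brighter probe sets. In 2cysprx HL against WT, 1 was called, against 4 with a trend, 4 among the brighter probe sets, 3 with array weights and 0 with only the compared arrays. With a trend, 2 were called in oastlB HL and 1 in serat2;1 HL, where the model without it called 0. With only the compared arrays, which leaves fewer residual degrees of freedom, 3 members in place of 6 were called in the light response of 2cysprx and 1 in place of 4 in 2cysprx averaged over both lights. Leaving out 1 array gave between 5 and 6 called members in the light response of WT, oastlB and serat2;1, between 4 and 6 in that of 2cysprx, 5 throughout in that of cyp20-3, between 0 and 1 in 2cysprx NL and in 2cysprx HL against WT, between 8 and 9 in the averaged light response, between 3 and 4 in 2cysprx averaged over both lights, and 0 in the other comparisons. The planned fit did not treat same-numbered replicates as pairs. Of their 180 pairs, 3 had deviations correlating above 0.1 (range -0.13 to 0.12), which does not settle whether they were paired. As a hint from the data and not the design, 20 of 40 arrays correlated best with an array of their own number, where an even spread over the 4 numbers would give 10. With the replicate block, 1 member was called in 2cysprx NL (GGAT1, adjusted p = 0.0496) and GOX2 passed in the light response of serat2;1 (adjusted p = 0.0393), and no other call of a member changed. With only the compared arrays, the number of all probe sets called was 873 in place of 2380 in the light response of 2cysprx, 2532 in place of 4495 in oastlB and 1407 in place of 3184 in serat2;1. The light response of WT then had 4257 in place of 5519, and that of cyp20-3 had 4303 in place of 4959. In NL against WT it was 618 in place of 2819 for 2cysprx, 2 in place of 13 for cyp20-3, 2 in place of 953 for oastlB and 0 in place of 674 for serat2;1, and in HL 151 in place of 616, 390 in place of 622, 31 in place of 238 and 2 in place of 266. For the interactions it was 1006 in place of 1694, 142 in place of 238, 140 in place of 779 and 184 in place of 638, and for the averages over both lights 1116 in place of 1741 in 2cysprx, 48 in place of 301 in oastlB and 22 in place of 181 in serat2;1. A trend gave 30 in cyp20-3 NL, 367 in oastlB HL, and 461 and 346 in the averages of oastlB and serat2;1. The brighter probe sets gave 41, 1579 and 1051 in the NL arrays of cyp20-3, oastlB and serat2;1, 1342 in the oastlB interaction, and 490, 459 and 292 in the averages of these 3 lines. Array weights gave 8 in cyp20-3 NL, 1036 and 1047 in 2cysprx HL and cyp20-3 HL, and 464 and 284 in the averages of cyp20-3 (309 in the model without weights) and serat2;1. The cause of these shifts was not tested. Probe positions are not given, so whether GOX1 and GOX2 share signal is not known.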
